A study of Mus musculus with 22 samples.

Results

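Blood-forming cells read colony stimulating factors (CSFs) through a small set of surface receptors, and the levels of 7 genes of this system are described here: the growth factor gene Csf1 and the receptor genes Csf1r, Csf3r, Csf2ra, Il3ra, Csf2rb and Csf2rb2. The 7 genes were listed by name as members of this system, with no threshold on their values but with earlier results of these data known. They stand among 47311 genes that could be assembled from the transcripts measured. All 7 passed the filter on low counts in every comparison. RNA was sequenced in 22 libraries of sorted mouse bone marrow cells: 2 WT and 2 Arid1a KO libraries of long-term haematopoietic stem cells (LT-HSC), and 3 WT and 3 KO libraries each of common myeloid precursors (CMP), granulocyte monocyte precursors (GMP) and megakaryocyte erythrocyte progenitors (MEP). KO cells came from Arid1a f/f;Mx1-Cre+ mice and WT cells from Arid1a f/f;Mx1-Cre- littermates, so that the floxed Arid1a alleles were shared by both genotypes. ARID1A is a subunit of the SWI/SNF chromatin remodeling complex. Mx1-Cre is switched on by interferon in haematopoietic cells and in other tissues, and both genotypes had received 5 injections of poly(I:C), which induces interferon, at 8 to 14 weeks of age and were analysed 4 weeks later. The gates were CD34-Flt3- cells of the Lin-Sca1+Kit+ fraction for LT-HSC and, within Lin-Kit+Sca1- cells, CD34+FcγRII/III lo for CMP, CD34+FcγRII/III hi for GMP and CD34-FcγRII/III- for MEP.

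The products of these genes fall into 3 receptor systems. CSF1 (macrophage colony stimulating factor) is the ligand of CSF1R, a receptor tyrosine kinase that drives the growth of monocytes and macrophages and also binds IL-34. CSF3R is the receptor of the granulocyte factor G-CSF, a single chain that pairs with itself and signals through JAK kinases and STAT3. The receptors of GM-CSF and IL-3 are built of a ligand-binding alpha chain, CSF2RA or IL3RA, and a signalling beta chain. CSF2RB is the beta chain common to GM-CSF, IL-3 and IL-5, and the mouse carries a duplicate, Csf2rb2, whose product serves IL-3 alone.

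The duplicates lie on chromosome 15 of GRCm38 and are transcribed away from each other: Csf2rb2 (ENSMUSG00000071714) from 78282507 to 78305721 on the minus strand and Csf2rb (ENSMUSG00000071713) from 78325752 to 78353847 on the plus strand, 20030 bases apart. Whether reads can tell them apart bears on every value of both genes. Their coding sequences in GENCODE vM21, 2688 bases in Csf2rb and 2634 in Csf2rb2, were identical at 95.2% of 2628 aligned bases, and the longest identical run was 242 bases. Of the 31-base words that kallisto uses to place a read, 39.6% of those in the coding sequence of Csf2rb also occurred in Csf2rb2. The coding stretch of 120 bases with the most differences within 1 exon, 16 in all, lies in exon 4 of both genes (chr15:78338867-78338986 on the plus strand and chr15:78294345-78294464 on the minus strand). It is printed 5′ to 3′ with the bases that differ in capitals.
Csf2rb exon 4: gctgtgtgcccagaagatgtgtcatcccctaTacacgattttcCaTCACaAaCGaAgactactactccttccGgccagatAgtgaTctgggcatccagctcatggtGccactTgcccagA
Csf2rb2 exon 4: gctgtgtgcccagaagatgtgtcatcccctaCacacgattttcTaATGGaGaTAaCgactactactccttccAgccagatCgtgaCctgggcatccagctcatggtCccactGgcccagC
In exon 14, by contrast, a stretch of 120 bases held no difference between the genes (chr15:78348577-78348696 on the plus strand, chr15:78284752-78284871 on the minus strand), so a fragment from it is shared and is split by the program's estimate.
Csf2rb and Csf2rb2 exon 14: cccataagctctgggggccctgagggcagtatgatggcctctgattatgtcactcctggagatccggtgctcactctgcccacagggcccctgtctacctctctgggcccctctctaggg

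The other genes lie apart. Csf1 (ENSMUSG00000014599) spans chr3:107741048-107760469 on the minus strand, Csf3r (ENSMUSG00000028859) chr4:126024550-126044440 on the plus strand and Il3ra (ENSMUSG00000068758) chr14:14346275-14356011 on the plus strand. Csf1r (ENSMUSG00000024621) spans chr18:61100598-61132149 on the plus strand, where it overlaps Hmgxb3 on the minus strand, and Csf2ra (ENSMUSG00000059326) spans chr19:61223957-61228429 on the minus strand. The libraries were not stated to keep the strand, so reads from the overlap of Csf1r and Hmgxb3 could be placed only by their exons.

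Each library held between 40804031 and 65930737 estimated counts on genes. In bulk libraries of sorted cells, fewer cells of a type and less RNA per cell cannot be told apart. LT-HSC libraries were made with another kit than the precursor libraries, so their levels are set side by side and not tested against each other. Arid1a itself, counted over all its exons, most of which are not deleted, had a KO to WT log2 fold change of −1.14 in the stem cells, where it did not pass the test, and of −0.22, −0.40 and −0.14 in CMP, GMP and MEP, where it did. Its genotypes did not overlap in normalized counts, but in TPM they overlapped in CMP and MEP. Summed TPM of the defining markers followed the labels in part. Neutrophil granule genes such as Mpo and Elane summed to 31802 to 37554 in WT GMP and at most 74.3 in WT MEP. Erythroid genes summed to 7024 to 7925 in WT MEP. Megakaryocyte genes did not follow the MEP label, with 31.5 to 54.7 TPM in WT MEP. Their sums were 781 to 1147 in WT CMP, 109 to 231 in WT GMP and 662 to 816 in WT LT-HSC. Erythroid genes also summed to 4370 to 6417 TPM in the LT-HSC libraries. In LT-HSC, 8 stem cell genes summed to 923 and 1234 in WT libraries and to at most 75.2 in WT precursors. WT LT-HSC library S245 had at least 10 counts on 27257 genes, more than any other library, although its total was the smallest, and LT-HSC results are therefore also given without it.

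In WT precursors the receptor genes were high in CMP and GMP and low in MEP. On the TPM scale, which corrects for transcript length and so allows genes to be ranked, the order in WT GMP was Csf3r at 112 ± 10.6 (SD, n = 3), Csf2ra at 93.5 ± 6.46, Csf2rb at 48.3 ± 2.09, Il3ra at 46.0 ± 0.579, Csf1r at 33.2 ± 7.53, Csf1 at 13.2 ± 0.459 and Csf2rb2 at 5.74 ± 0.294. The libraries of Csf2rb and Il3ra overlapped in this order. Csf3r led in WT CMP too, at 54.8 ± 5.65 TPM, followed by Csf1r at 40.6 ± 12.3, Csf2ra at 40.5 ± 2.63 and Il3ra at 34.2 ± 1.63, and the range of Csf1r, 27.9 to 52.4 TPM, took in those of Csf2ra and Il3ra and overlapped that of Csf3r, 49.1 to 60.4 TPM. In WT MEP, Csf2ra was at 17.1 ± 3.92 TPM and Il3ra at 3.92 ± 0.637, whereas Csf3r was at 1.31 ± 1.21, Csf1 at 0.340 ± 0.221, Csf2rb at 0.246 ± 0.149, Csf1r at 0.157 ± 0.0627 and Csf2rb2 at 0.0554 ± 0.0217. The alpha chain of the GM-CSF receptor was thus present in WT MEP at 41.6 to 86.5 times the TPM of both beta chains together, against 1.63 to 1.79 times in WT GMP. The size of the ratio in MEP rests on few beta chain reads, 18 to 83 counts of Csf2rb and 5 to 14 of Csf2rb2 per WT library.

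**Figure D1:**
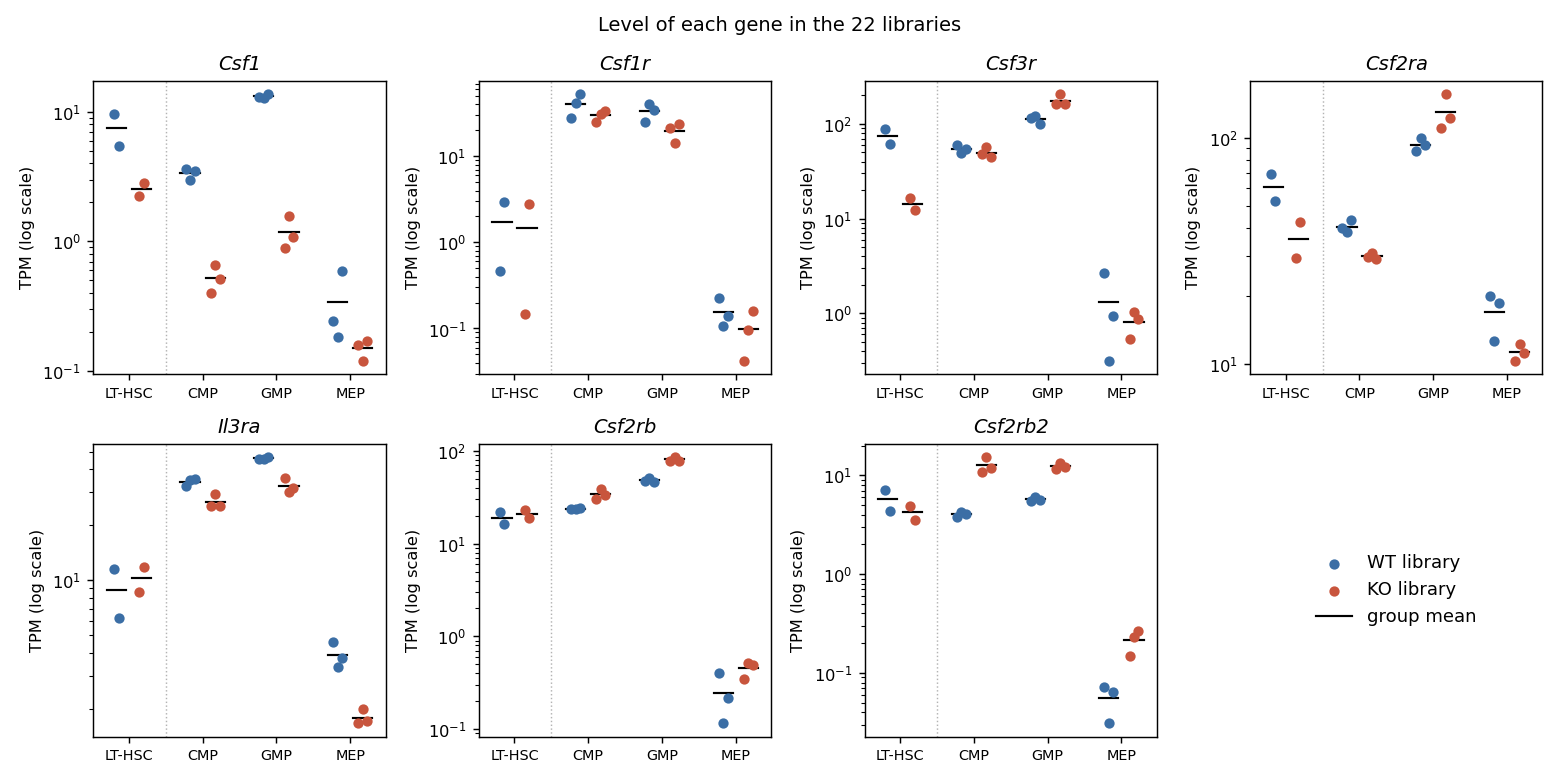
TPM (log scale) of the 7 genes in each of the 22 libraries, by population, with WT libraries in blue, KO libraries in red and group means as black bars. The dotted line sets LT-HSC apart, whose libraries were made with another kit. Csf1 separates the genotypes in every population, from 12.7 to 13.7 TPM in WT GMP against 0.894 to 1.57 TPM in KO GMP.

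The differences between WT populations were tested on counts from the same 3 mice. From CMP to GMP, 6 of the 7 genes were higher, where 45.2% of all genes passed in either direction. Csf1 was 3.94-fold higher (log2 fold change 1.98, SE 0.12, adjusted p = 2.63e-08), Csf2ra 2.58-fold, Csf3r 2.29-fold, Csf2rb 2.27-fold, Csf2rb2 1.57-fold and Il3ra 1.5-fold. Csf1r had a log2 fold change of −0.11 (SE 0.17, adjusted p = 0.668) and turned to 0.05 without the libraries of WT mouse 309. All 7 genes were lower in WT MEP than in WT CMP, where 70.6% of all genes passed. Csf1r was 191-fold lower, Csf2rb 73.6-fold, Csf2rb2 56.5-fold, Csf3r 34.3-fold, Csf1 10.6-fold and Il3ra 6.95-fold, while Csf2ra was 1.91-fold lower (adjusted p = 2.18e-05). All 7 were likewise higher in WT GMP than in WT MEP, from 4.93-fold for Csf2ra to 177-fold for Csf1r, where 70.7% of all genes passed. These 3 contrasts share their libraries.

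In WT LT-HSC the order was again led by Csf3r, at 87.9 and 61.8 TPM in the 2 libraries, and Csf2ra, at 69.3 and 52.6. Csf2rb stood at 21.7 and 16.4 TPM, Il3ra at 11.5 and 6.22, Csf1 at 9.56 and 5.42, and Csf2rb2 at 7.07 and 4.35. Csf1r was the lowest, at 0.462 and 2.97 TPM.

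Loss of Arid1a went with changes that differed in direction from gene to gene. In CMP, 5 of the 7 genes passed the test: Csf1, Csf2ra and Il3ra were lower, where 12.8% of all genes were lower, and Csf2rb and Csf2rb2 were higher, where 10.6% of all genes were higher. In GMP all 7 passed: Csf1, Csf1r and Il3ra were lower (background 16.3%) and Csf2ra, Csf2rb, Csf2rb2 and Csf3r higher (background 17.5%). In MEP 4 passed: Csf1, Csf2ra and Il3ra were lower (background 15.4%) and Csf2rb2 higher (background 14%). Csf3r alone passed in LT-HSC, where it was lower (background 0.0528% lower and 0.0264% higher). The MEP count fell to 2 without KO mouse 301 or without WT mouse 309. The LT-HSC count was 2 without WT library S269, when Csf1 passed as well, and 0 without KO library S270.

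**Figure D2:**
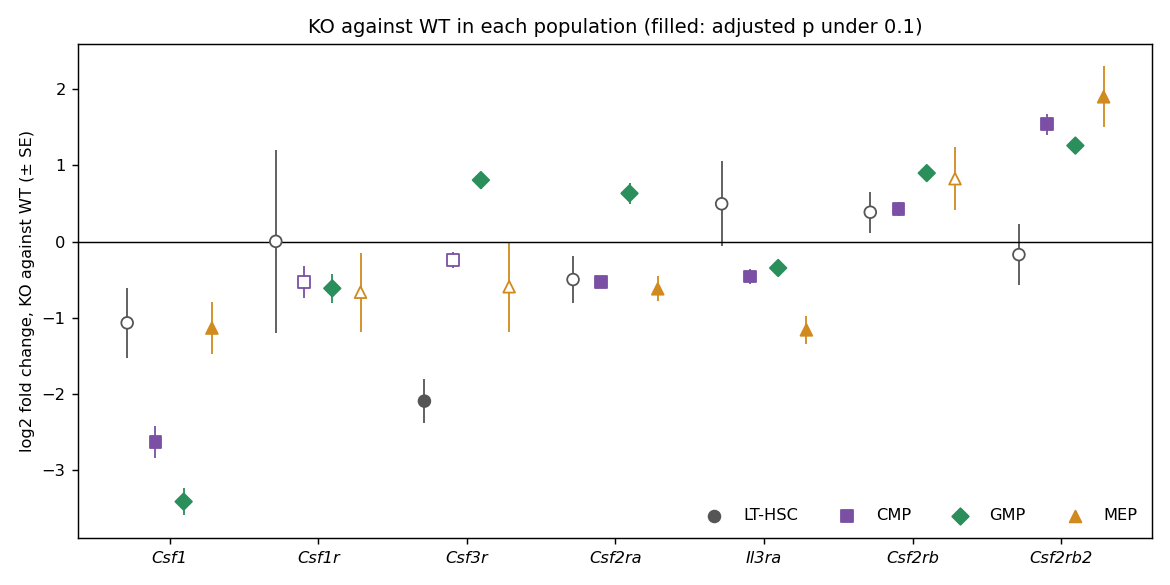
Log2 fold change of KO against WT (vertical axis, with SE) for the 7 genes in LT-HSC (circles), CMP (squares), GMP (diamonds) and MEP (triangles), from edgeR fits of 2 against 2 libraries in LT-HSC and 3 against 3 in the precursors. Filled symbols passed an adjusted p of 0.1; Csf1 lies below 0 and Csf2rb2 above 0 in the 3 precursors, and Csf3r lies above 0 in GMP and below 0 elsewhere.

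Csf1 had the largest change of the 7 genes in CMP and GMP. In GMP it stood at 13.1, 12.7 and 13.7 TPM in WT mice 300, 305 and 309 and at 0.894, 1.57 and 1.08 TPM in KO mice 301, 304 and 308. No KO library came near a WT one, and the gene was 10.7-fold lower (log2 fold change −3.41, SE 0.18, adjusted p = 5.63e-06). In CMP it stood at 3.59, 2.96 and 3.49 TPM in WT and at 0.399, 0.656 and 0.516 TPM in KO, 6.20-fold lower (log2 fold change −2.63, SE 0.21, adjusted p = 1.20e-04). MEP held few Csf1 reads, 23 to 38 estimated counts a library in WT and 14 to 19 in KO, and the log2 fold change of −1.14 (SE 0.34, adjusted p = 0.0467) did not pass without KO mouse 301 (adjusted p = 0.154), KO mouse 308 (0.140) or WT mouse 309 (0.146), nor with limma on log2(TPM + 1), where it was −0.21 (adjusted p = 0.270). In LT-HSC, Csf1 was at 9.56 and 5.42 TPM in WT and 2.25 and 2.82 in KO, with no overlap, but the log2 fold change of −1.07 (SE 0.46) had an adjusted p of 0.876. The log2 fold change was −0.73 without WT library S245 and −1.36 without WT library S269, each time with 1 WT library left.

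Beside Csf1 in GMP, eosinophil markers summed to 4207 to 9625 TPM in WT and 1181 to 2345 in KO, and basophil and mast cell markers to 1067 to 1564 in WT and 337 to 404 in KO, with no gene of either list at 0. Their part in the result was not tested.

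The size of the Csf1 change differed between precursors when the difference itself was tested, with mouse as a block. The change in GMP was more negative than in CMP by −0.76 (SE 0.19, adjusted p = 0.0145), where 21.0% of all genes differed, and more negative than in MEP by −2.29 (SE 0.27, adjusted p = 4.86e-05), where 26.8% differed. The change in MEP was less negative than in CMP by 1.53 (SE 0.27, adjusted p = 0.00265), where 13% differed. The difference between GMP and CMP did not pass with an offset for transcript length (−0.55, adjusted p = 0.339) or without the mouse block (−0.78, adjusted p = 0.1004).

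Of the 7 Csf1 transcripts measured, the longest, of 4176 bases, held most of the gene's estimated counts, with means of 81.0% ± 4.98 in WT GMP and 70.7% ± 15.2 in KO GMP (SD, n = 3). The coding transcript of 3058 bases held 6.18% to 11% in WT GMP and 0.515% to 34.8% in KO GMP, so the genotypes overlapped in the shares of both.

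Csf1r, the receptor of CSF1, had lower means in KO CMP and GMP, with wide spread. In GMP the WT libraries stood at 25.2, 40.2 and 34.3 TPM and the KO libraries at 21.2, 14.2 and 23.6. The log2 fold change of −0.61 (SE 0.19, adjusted p = 0.0450) passed, but not without KO mouse 304 (−0.45, adjusted p = 0.116), WT mouse 305 (−0.49, adjusted p = 0.120) or WT mouse 309 (−0.59, adjusted p = 0.123), and the highest KO library lay above the lowest WT library in CPM (counts scaled to a common library size), at 70.1 against 66.3. In CMP the WT libraries stood at 27.9, 41.5 and 52.4 TPM and the KO libraries at 25.2, 31.4 and 33.7, an overlap set by WT mouse 300. The log2 fold change of −0.53 (SE 0.21) had an adjusted p of 0.134, against 0.0111 without WT mouse 300 (−0.75). With the replicate block, which pairs WT and KO mice, it passed at −0.49 (SE 0.08, adjusted p = 0.00345). The 10 monocyte and macrophage markers, of which Csf1r is not one, summed to 1358 to 1622 TPM in WT GMP and 964 to 1179 in KO GMP. In CMP they summed to 274 to 507 in WT and 184 to 231 in KO. The genes of this list moved both ways. In GMP 4 were called lower and 3 higher, against 16.3% and 17.5% of all genes. In CMP 4 were lower and 2 higher, against 12.8% and 10.6%. The part of these markers in the Csf1r values was not tested. MEP held 6 to 37 counts of Csf1r per library, and the log2 fold change of −0.66 (SE 0.52, adjusted p = 0.423) gave no basis for a direction. LT-HSC libraries were spread likewise: KO libraries stood at 0.147 and 2.78 TPM and WT libraries at 0.462 and 2.97 (log2 fold change 0.00, SE 1.2), and −0.83 (SE 0.73) without library S245. In LT-HSC each genotype had 1 low and 1 high library, and the genotypes overlapped.

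Csf3r, the G-CSF receptor, changed in opposite directions in LT-HSC and in GMP. In LT-HSC it stood at 87.9 and 61.8 TPM in WT and at 16.4 and 12.4 TPM in KO, a 4.27-fold lower level (log2 fold change −2.09, SE 0.29, adjusted p = 0.0425). Both KO libraries lay far below both WT libraries, and the value was −2.00 without library S245, which left 1 WT library. The call was lost with limma on log2(TPM + 1) (−2.29, adjusted p = 0.380). Without KO library S270, which left 1 KO library, the value was −1.94 and did not pass. The 10 neutrophil marker genes also stood higher in 1 of the WT libraries, with 470 and 2780 summed TPM in WT libraries S245 and S269 against 421 and 413 in KO libraries S244 and S270, and each of the 10 was present in every group. Csf3r stood at 87.9 TPM in WT library S245 and 61.8 in S269, and the part of the neutrophil genes in its result was not tested.

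In GMP, Csf3r stood at 115, 121 and 101 TPM in WT and at 163, 205 and 161 TPM in KO, 1.75-fold higher with no overlap (log2 fold change 0.81, SE 0.11, adjusted p = 7.58e-04). Neutrophil granule genes rose beside it, with 8 of 8 called higher, against 17.5% of all genes. They summed to 42911 to 48720 TPM in KO and 31802 to 37554 in WT. Of the 10 other neutrophil genes 4 were called higher and 4 lower, against 17.5% and 16.3% of all genes. Their sum was 421, 1351 and 516 TPM in KO mice 301, 304 and 308 and 182 to 399 in WT. KO mouse 304 was also the highest in Csf3r. The part of both gene lists in the result was not tested. CMP libraries overlapped, at 60.4, 49.1 and 54.9 TPM in WT and 47.6, 57.2 and 44.3 in KO, and the log2 fold change of −0.25 (SE 0.10) had an adjusted p of 0.153. It passed at −0.26 with the replicate block (adjusted p = 0.0964) and at −0.39 without KO mouse 304 (adjusted p = 0.00752). In MEP the log2 fold change of −0.59 (SE 0.59, adjusted p = 0.539) turned to 0.39 without WT mouse 300, whose MEP library held 2.66 TPM of Csf3r against 0.316 and 0.942 in the other WT libraries. That library also held 111 summed TPM of neutrophil genes against 32.4 and 32.7. The change in GMP exceeded that in CMP by 1.05 (SE 0.35, adjusted p = 0.0595) and that in MEP by 1.38 (SE 0.46, adjusted p = 0.0509). Neither difference was stable. That with CMP did not pass without any 1 of the 3 KO mice or WT mouse 309 (adjusted p from 0.156 to 0.205), and that with MEP did not pass without any 1 of the KO mice (0.115 to 0.179) and fell to 0.43 without WT mouse 300 (0.423).

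The 2 main coding transcripts of Csf3r, of 3160 and 3481 bases, shared the gene's counts in GMP. The shorter held 49.5% to 54.3% in WT and 56.3% to 61.7% in KO, and the longer held 43.1% to 46.9% in WT and 35.5% to 40.7% in KO. These shares did not overlap, were not tested, and are estimates that the program makes from overlapping exons.

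Csf2ra, the alpha chain of the GM-CSF receptor, was lower in KO CMP and MEP and higher in KO GMP. WT CMP stood at 39.8, 38.3 and 43.4 TPM and KO CMP at 29.8, 31 and 29.2 (log2 fold change −0.53, SE 0.07, adjusted p = 0.00166). WT GMP stood at 87.2, 100 and 93.3 TPM and KO GMP at 110, 156 and 123 (log2 fold change 0.63, SE 0.14, adjusted p = 0.00796). Neither comparison had an overlap between genotypes. WT MEP stood at 19.9, 12.6 and 18.7 TPM and KO MEP at 10.4, 12.3 and 11.3 (log2 fold change −0.62, SE 0.16, adjusted p = 0.0297), and this call was lost without KO mouse 301 (adjusted p = 0.115) or WT mouse 309 (adjusted p = 0.109). The change in GMP exceeded that in CMP by 1.15 (SE 0.18, adjusted p = 6.61e-04) and that in MEP by 1.23 (SE 0.18, adjusted p = 3.20e-04), and both differences passed under every alternative tried. In LT-HSC, WT stood at 69.3 and 52.6 TPM and KO at 29.4 and 42.4, and the log2 fold change of −0.50 (SE 0.30) did not pass (adjusted p = 0.876; −0.44 without library S245).

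Il3ra, the alpha chain of the IL-3 receptor, was lower in KO cells of all 3 precursors. In MEP it fell from 4.62, 3.38 and 3.75 TPM in WT to 1.66, 1.99 and 1.71 TPM in KO, 2.23-fold (log2 fold change −1.16, SE 0.19, adjusted p = 0.00347), on 78 to 248 counts per library. In CMP it fell from 32.3, 35.1 and 35.2 TPM to 25.2, 29.5 and 25.3 (log2 fold change −0.46, SE 0.09, adjusted p = 0.0103). In GMP it fell from 45.7, 45.6 and 46.7 TPM to 35.8, 30.2 and 31.6 (log2 fold change −0.35, SE 0.06, adjusted p = 0.00379). The genotypes did not overlap in any of the 3. The change in MEP was larger than that in CMP by −0.71 (SE 0.17, adjusted p = 0.0147), and the change in GMP was less negative than that in MEP by 0.83 (SE 0.16, adjusted p = 0.00260), which did not pass with limma on log2(TPM + 1) (0.32, adjusted p = 0.1298). Basophil and mast cell genes fell beside Il3ra: 6 of 8 were called lower and 1, Cd200r3, higher in CMP, against 12.8% and 10.6% of all genes. In GMP 6 of 8 were lower, against 16.3% of all genes. In MEP 4 of the 6 tested were lower, against 15.4%. Their summed TPM in MEP was 63.9 to 80.2 in WT and 16.7 to 22.4 in KO. Most of the WT sum was Gata2, which is on this list, at a mean of 63.9 TPM in WT MEP. Of the 8 genes, 5 were under 1 TPM in every WT MEP library and 7 in every KO MEP library. The defining genes Prss34 and Mcpt8 were in the WT MEP libraries at means of 1.21 and 0.728 TPM. Their part in the result was not tested. In LT-HSC the genotypes overlapped, at 11.5 and 6.22 TPM in WT and 8.64 and 11.8 in KO (log2 fold change 0.50, SE 0.56, adjusted p = 0.880; 0.83 without library S245).

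Csf2rb2, the IL-3-specific beta chain, rose in all 3 KO precursors, and Csf2rb, the common beta chain, rose in KO CMP and GMP. Csf2rb2 in CMP stood at 3.81, 4.31 and 4.10 TPM in WT and at 10.7, 15.3 and 11.9 TPM in KO, 2.91-fold higher (log2 fold change 1.54, SE 0.14, adjusted p = 2.08e-04). In GMP it stood at 5.50, 6.07 and 5.65 TPM in WT and at 11.6, 13.3 and 12.1 in KO, 2.39-fold higher (log2 fold change 1.26, SE 0.09, adjusted p = 2.11e-05). No KO library came down to a WT level in either population. In MEP it rested on 5 to 14 counts in WT and 25 to 53 in KO, with a log2 fold change of 1.90 (SE 0.40, adjusted p = 0.0116) and no overlap.

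Csf2rb stood at 23.5, 23.6 and 24.1 TPM in WT CMP and at 30.0, 38.6 and 33.8 TPM in KO CMP (log2 fold change 0.43, SE 0.09, adjusted p = 0.0127). In GMP it stood at 47.9, 50.5 and 46.4 TPM in WT and at 78.5, 85.8 and 78.1 in KO, 1.86-fold higher (log2 fold change 0.90, SE 0.07, adjusted p = 3.91e-05). Both populations had no overlap between genotypes. MEP libraries held 18 to 102 counts and overlapped, and the log2 fold change of 0.82 (SE 0.41) had an adjusted p of 0.204, against 0.0411 without WT mouse 300 (1.40). No difference between precursors in the change of Csf2rb or Csf2rb2 passed, with adjusted p from 0.117 to 0.827, although that of Csf2rb in GMP less CMP, 0.48, passed without WT mouse 300 (adjusted p = 0.0240) or WT mouse 305 (0.0465), and that in MEP less CMP, 0.36, rose to 1.0 without WT mouse 300 (adjusted p = 0.0235). With limma on log2(TPM + 1), Csf2rb2 in GMP less CMP passed at −0.43 (adjusted p = 0.0409) and Csf2rb in GMP less MEP at 0.51 (adjusted p = 0.0110), and Csf2rb in GMP less CMP passed without the filter on low counts (0.48, adjusted p = 0.0534). In LT-HSC, Csf2rb stood at 21.7 and 16.4 TPM in WT and 23.0 and 18.7 in KO (log2 fold change 0.38, SE 0.27, adjusted p = 0.876; 0.46 without library S245), and Csf2rb2 at 7.07 and 4.35 in WT and 4.93 and 3.52 in KO (−0.17, SE 0.40, adjusted p = 0.930; 0.06 without library S245).

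Since shared fragments of the beta chains were split by estimate, both were also counted as 1 gene. The sum was higher in KO CMP (log2 fold change 0.65, SE 0.10, adjusted p = 0.00250), GMP (0.94, SE 0.07, adjusted p = 3.59e-05) and MEP (1.09, SE 0.39, adjusted p = 0.0847). The share of Csf2rb2 in the summed TPM of both was 13.9% to 15.4% in WT CMP and 26.0% to 28.5% in KO CMP. In GMP the share was 10.3% to 10.9% in WT and 12.9% to 13.4% in KO, and in MEP 15% to 22.7% in WT and 29.6% to 35.0% in KO. The genotypes did not overlap in the 3 precursors, each with an exact permutation p of 0.1, two-sided, the smallest that 3 against 3 allows. In LT-HSC the share ran the other way, at 24.6% and 21.0% in WT and 17.6% and 15.8% in KO (exact permutation p = 0.333, the smallest that 2 against 2 allows).

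Set against the beta chains of the same library, the alpha chains were lower in KO precursors. The ratio of Il3ra to summed beta chain TPM was 1.18 to 1.26 in WT CMP and 0.548 to 0.618 in KO CMP, and 0.806 to 0.896 in WT GMP and 0.305 to 0.397 in KO GMP. The ratio of Csf2ra to the beta chains was 1.37 to 1.54 in WT CMP and 0.575 to 0.731 in KO CMP. In GMP, where Csf2ra itself rose, the ratio was 1.63 to 1.79 in WT and 1.22 to 1.57 in KO. In MEP, where few beta chain reads were found, it was 41.6 to 86.5 in WT and 14.9 to 20.8 in KO. None of these overlapped (exact permutation p = 0.1 each, two-sided), and a ratio shows unequal change, not which chain moved.

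**Figure D3:**
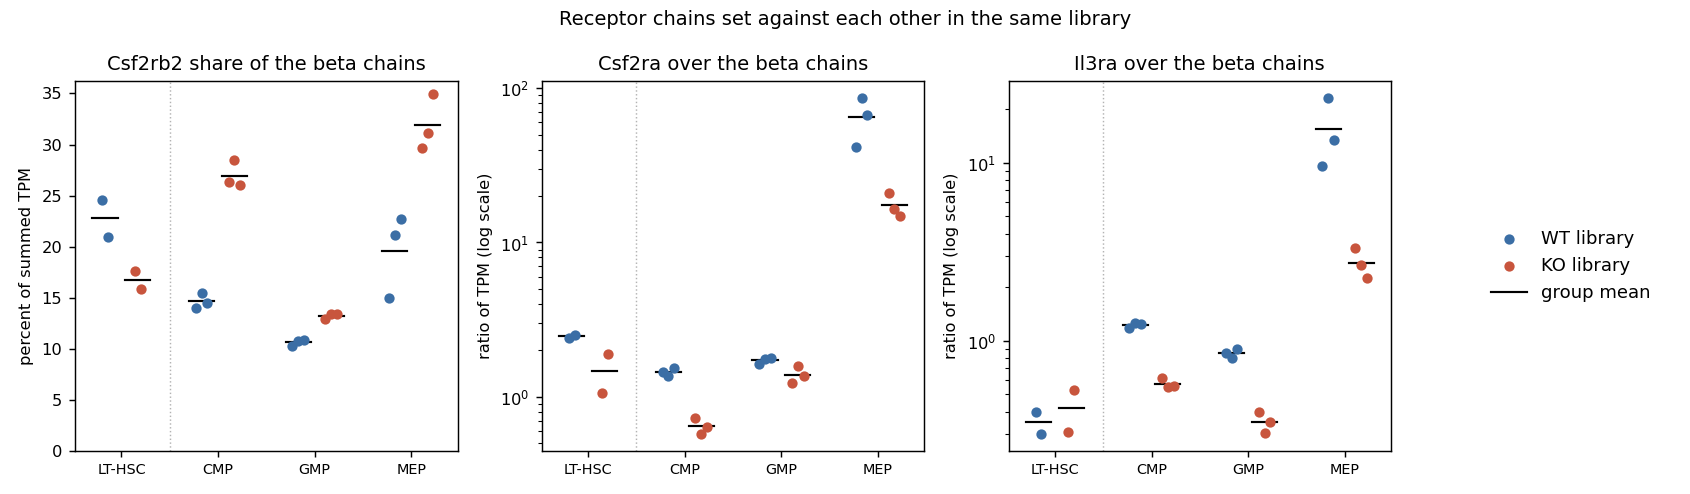
Share of Csf2rb2 in the summed TPM of Csf2rb and Csf2rb2 (left, percent) and TPM of Csf2ra (middle) and Il3ra (right) over that sum (log scale), per library, with WT in blue, KO in red and group means as black bars. The share of Csf2rb2 in CMP is 13.9% to 15.4% in WT and 26.0% to 28.5% in KO, and both ratios are lower in KO libraries of each precursor.

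Other genes of the signalling pathway around these receptors were counted over a list of 49. It held other ligands, the IL-5 receptor alpha chain Il5ra, kinases, STAT factors, adaptors, phosphatases and ubiquitin ligases, feedback inhibitors and target genes. In GMP, 19 of 44 tested were higher in KO and 5 lower, against 17.5% of all genes higher and 16.3% lower, with a median log2 fold change of 0.21 against −0.01 over all genes. Id1, an inhibitor of DNA binding, went from 8.64 to 46.9 TPM (log2 fold change 2.60, adjusted p = 2.65e-06) and Ptpn6, the phosphatase SHP-1, from 161 to 222 TPM (0.65, adjusted p = 4.02e-05). In CMP, 12 of 44 were higher and 9 lower, against 10.6% and 12.8% of all genes, and the smallest p values were those of the cytokine gene Osm, which fell from 6.23 to 1.33 TPM (−2.30, adjusted p = 3.74e-05), and the adaptor gene Dok1, which rose from 29.5 to 44.1 TPM (0.46, adjusted p = 0.00163). In MEP, 12 of 42 were higher and 11 lower, against 14% and 15.4% of all genes, led by Pik3cd, a catalytic subunit of PI3-kinase (16.8 to 6.38 TPM, −1.39, adjusted p = 4.91e-05), and Osm (5.09 to 0.142 TPM, −5.24, adjusted p = 2.17e-04). In LT-HSC edgeR called 0 of 45, with 5 at an unadjusted p under 0.05 and 2 called by DESeq2, and the smallest p values were those of the feedback inhibitor Socs2 (1.59, adjusted p = 0.245) and Osm (−2.12, adjusted p = 0.712). Csf3, Il3, Il5 and Il34 had too few counts to be tested in any population.

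Transcription factors known to act on receptor genes of myeloid cells were counted over a list of 10. In CMP, 6 were lower and 1 higher in KO, against 12.8% and 10.6% of all genes, with the smallest p for Gata2 (256 to 175 TPM, log2 fold change −0.69, adjusted p = 4.25e-04) and Gfi1 (17.8 to 9.53 TPM, −0.99, adjusted p = 7.39e-04). In GMP, 5 were lower and 4 higher, against 16.3% and 17.5% of all genes, led by Gata2 (83.1 to 25.0 TPM, −1.70, adjusted p = 1.11e-05) and Runx1 (51.8 to 27.1 TPM, −0.64, adjusted p = 7.48e-05). In MEP, 2 of 9 were lower, against 15.4% of all genes, Gata2 (63.9 to 18.1 TPM, −1.84, adjusted p = 2.94e-05) and Myb (254 to 209 TPM, −0.30, adjusted p = 0.0377). In LT-HSC edgeR called 0 of 10, with 1 at an unadjusted p under 0.05 and 0 called by DESeq2, and Spi1, which encodes PU.1, had the smallest p (101 to 144 TPM, 0.79, adjusted p = 0.876), before Irf8 (−0.75, adjusted p = 0.876).

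**Figure D4:**
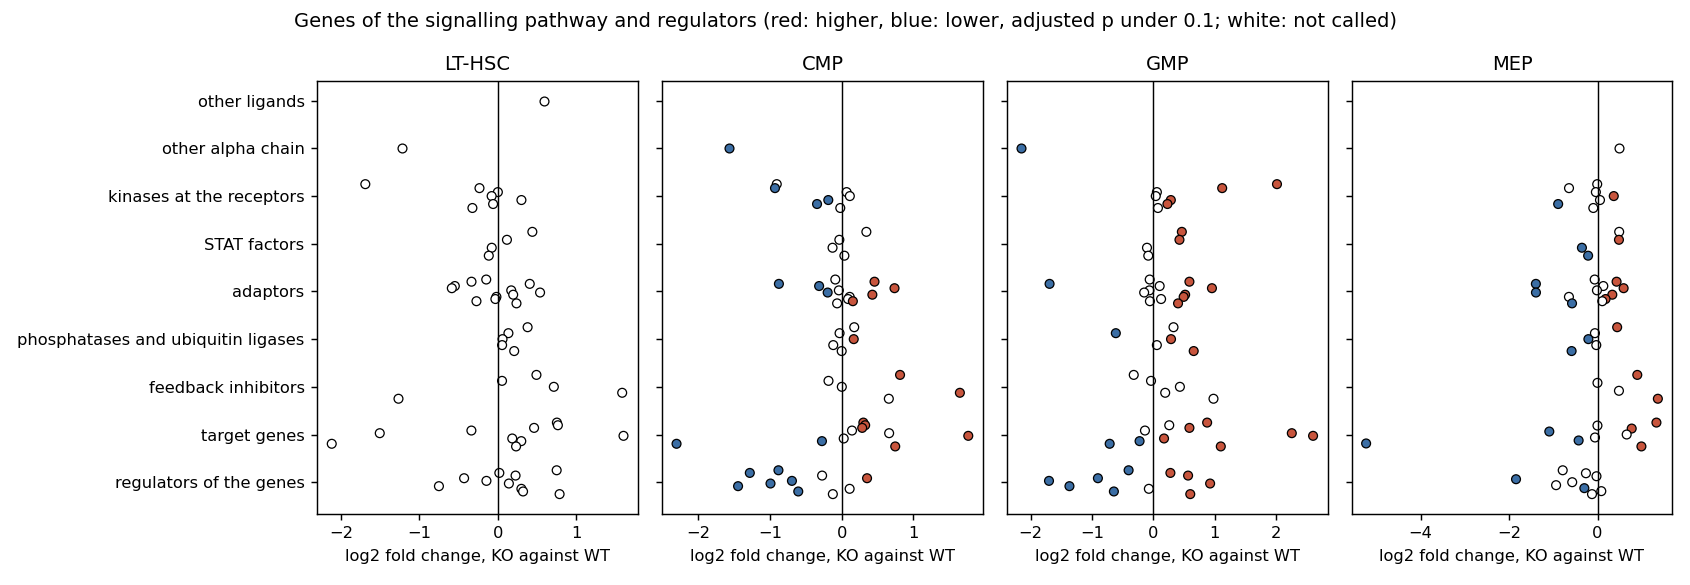
Log2 fold change of KO against WT (horizontal axis, on a scale of its own in each panel) for the tested genes of the signalling list by role and for the transcription factors, in 4 populations. Each point is a gene, red or blue where it passed higher or lower at an adjusted p of 0.1; 19 signalling genes are red in GMP and 12 in CMP and in MEP.

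Markers of other cell types that the gates could hold also moved with genotype. In CMP, 8 of 9 erythroid genes were higher in KO, and 6 of 10 neutrophil genes were lower. Of 8 neutrophil granule genes 5 were lower and 1 higher, of 8 megakaryocyte genes 5 were lower and 2 higher, and of 10 monocyte and macrophage genes 4 were lower and 2 higher. In GMP, 5 of 6 eosinophil genes and 6 of 8 stem cell genes were lower, 4 of 10 neutrophil genes were higher and 4 lower, and 4 of 10 monocyte and macrophage genes were lower and 3 higher. In MEP, 4 of 8 megakaryocyte genes were higher, and 4 of 9 erythroid genes were higher and 1 lower, while the erythroid sum was 5468 to 5792 TPM in KO and 7024 to 7925 in WT. Of the 6 genes of the gates, Fcgr3 was lower (11.5 to 5.19 TPM, log2 fold change −1.24, adjusted p = 0.00225) and Flt3 higher (78.4 to 161 TPM, 0.94, adjusted p = 0.00284) in KO CMP. Ly6a and Cd34 were lower and Fcgr2b higher in KO GMP, and Fcgr3 was lower in KO MEP. Of 7 dendritic cell genes, 2 were higher and 1 lower in CMP, and 1 was higher and 2 lower in GMP. Of 7 lymphoid genes tested, 2 were lower and 1 higher in CMP, and 1 was lower in GMP. Cd3e, a T cell gene, was at 0 in all 3 KO MEP libraries. In LT-HSC edgeR called 0 marker genes in any list, although each list had 1 to 5 genes at an unadjusted p under 0.05, with 5 of 6 for eosinophil genes. DESeq2 called 1 neutrophil, 1 basophil and mast cell, 1 erythroid and 2 megakaryocyte genes there. The summed eosinophil markers were 3789 TPM in KO library S270 and at most 268 in the other LT-HSC libraries. The part of these markers in the results was not tested.

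Genes with the most similar pattern over the 18 precursor libraries were found by the Pearson correlation of log2(TPM + 1) among 11597 genes. The points share mice and the large steps between populations, so the values describe these libraries only. Csf2rb was closest to Myo1f, a myosin of leukocytes (r = 0.998), Pik3ap1 and Jdp2. Csf3r was closest to Arl11 (r = 0.997), Nfam1 and Rasgrp2, and Csf1r to Tmem229b (r = 0.997), Milr1 and Hdac5. Il3ra was closest to Klhl5 (r = 0.995), Anxa5 and Naglu, Csf2ra to Gpi1, an enzyme of glycolysis (r = 0.992), Cemip2 and Chst12, and Csf2rb2 to 5830432E09Rik (r = 0.994), Lst1 and Pcp4l1. Csf1 had the lowest leading values, with ENSMUSG00000030653 (r = 0.969), named Gm45837 in the annotation used here and Pde2a in the study's tables, Nlrp1a and Adam3. Among the members, Csf2rb and Csf3r were closest (r = 0.992), and Csf1 and Csf2rb2 were farthest apart (r = 0.370).

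The bases before the RefSeq start sites of 5 of the 7 genes were in RefSeq's promoter set for GRCm38.p6, and the 250 bases upstream of each RefSeq start were searched on both strands for 4 motifs: GAGGAAG, a core bound by PU.1, TTGCNNAA, bound by C/EBP factors, TGTGGT, bound by RUNX factors, and AGATAA, bound by GATA factors. The first was found before 3 of the 5 genes (Csf2ra, Csf2rb2 and Csf3r), against 10.6% of 32851 promoters of the same length. The C/EBP letters were found before Il3ra, against 9.56% of promoters, and the RUNX and GATA letters before none of the 5, against 14% and 9.99%. RefSeq starts differ from the GENCODE starts given above for Csf3r, Il3ra and Csf2ra, so that the matches of Csf3r and Il3ra lie inside the GENCODE gene and those of Csf2ra lie across its edge. The upstream sequences are shown for Csf1, which had the largest change of the 7 genes in CMP and GMP, and for the receptor chain genes Csf2ra and Csf2rb2. The PU.1 letters of these 2 receptor chain genes are in capitals, on the opposite strand in Csf2rb2 and as 2 overlapping copies in Csf2ra.
Csf1, chr3:107760470-107760719, minus strand: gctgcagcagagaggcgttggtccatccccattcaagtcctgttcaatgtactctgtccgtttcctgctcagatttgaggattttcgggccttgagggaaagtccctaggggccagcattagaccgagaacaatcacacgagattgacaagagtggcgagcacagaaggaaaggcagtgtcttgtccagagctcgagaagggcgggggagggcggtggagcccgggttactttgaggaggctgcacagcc
Csf2rb2, chr15:78305722-78305971, minus strand: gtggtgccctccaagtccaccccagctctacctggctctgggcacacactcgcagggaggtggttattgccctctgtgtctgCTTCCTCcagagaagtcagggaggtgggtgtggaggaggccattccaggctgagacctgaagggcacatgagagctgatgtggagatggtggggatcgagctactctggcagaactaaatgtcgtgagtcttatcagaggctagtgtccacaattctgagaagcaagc
Csf2ra, chr19:61228419-61228668, minus strand: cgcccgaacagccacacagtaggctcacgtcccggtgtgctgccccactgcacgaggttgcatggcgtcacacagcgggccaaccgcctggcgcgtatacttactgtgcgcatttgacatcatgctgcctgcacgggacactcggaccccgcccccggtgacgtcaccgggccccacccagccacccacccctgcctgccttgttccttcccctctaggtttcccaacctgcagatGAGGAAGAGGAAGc
A match is a description of the letters, and no binding was measured here.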

How the data were processed

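RNA-seq reads of 22 libraries (4 of LT-HSC, 18 of CMP, GMP and MEP) were quantified by the authors with kallisto against Ensembl mouse transcripts (GRCm38), and the deposited values are an estimated count and a TPM per transcript, with effective lengths per library. The 115088 transcripts were paired with GENCODE vM21 genes (99.2% matched), and estimated counts and TPM were summed per gene and the counts rounded. Totals were 40804031 to 65930737 per library, with a median of 52785379.5.

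KO and WT were compared within each population with edgeR 4.0.16 in R 4.3.3 (TMM normalization, filterByExpr, quasi-likelihood test, Benjamini-Hochberg adjustment over all genes, FDR of 0.1). Populations, and KO effects between populations, were compared in 1 fit of the 18 precursor libraries with mouse as a block. Standard errors are the log2 fold change over the square root of F. Scripts were tested on simulated data. Pairs of WT and KO mice came from the column order of the study's tables. Paired deviations correlated at 0.431 to 0.668 in CMP, 0.451 to 0.563 in GMP and 0.180 to 0.640 in MEP, so precursors were treated as paired in the alternative with a replicate block. In MEP the values did not bear out every pair. Mice 300 and 301, a pair, correlated at 0.180, but 300 and 308 at 0.412 and 309 and 301 at 0.219. LT-HSC had 2 pairs (0.161), too few to decide. Nothing beyond the mouse numbers in the titles describes the replicates, so p-values measure the spread between these samples.

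As alternatives served size factors by median of ratios, no filter, a length offset, DESeq2 1.42.0, limma 3.58.1 on log2(TPM + 1) and log2(TPM + 0.1), Csf2rb and Csf2rb2 as 1 gene, 18 libraries in 1 fit, the block added or dropped, and each library or mouse left out. Genes named are the 7 in every comparison, Arid1a, the marker genes, the 2 of smallest p per list and population in the signalling and transcription factor lists, and the 3 most correlated genes of each member with a mean of at least 5 TPM in some group. Members and lists were chosen with earlier results of these data known. Coding sequences were aligned with Biopython 1.88. Other assays of the study were not analysed here.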

Additional observations from a re-analysis of the deposited data

Results flagged for a closer look

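The KO effects on 4 of the 7 genes differed between precursors in at least 1 test of the difference itself (edgeR, mouse as a block, log2 scale). The share of all genes that did so was not computed. By single difference, 3 of the 7 differed in GMP less CMP, 2 in MEP less CMP and 4 in GMP less MEP. Of all genes, 21%, 13% and 26.8% differed in these. For Csf1 the effect in GMP less that in CMP was −0.76, that in MEP less that in CMP 1.53 and that in GMP less that in MEP −2.29. For Csf2ra the effect in GMP exceeded that in CMP by 1.15 and that in MEP by 1.23. For Il3ra the effect in MEP less that in CMP was −0.71 and that in GMP less that in MEP 0.83. For Csf3r the effect in GMP exceeded that in CMP by 1.05 and that in MEP by 1.38. Both differences of Csf3r were lost with DESeq2 (adjusted p = 0.234 and 0.154), and that of Csf1 between GMP and CMP with the length offset (0.339) or without the block (0.1004).

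Between GMP and LT-HSC, whose libraries were made with different kits, 2 genes had log2 fold changes of opposite sign with no overlap between genotypes in either population. The share of all genes that did so was not computed. With 2 against 2 libraries in LT-HSC, the smallest exact permutation p is 0.333, so no overlap there is weak. Csf3r passed the test in both, and Csf2ra in GMP but not in LT-HSC (−0.50, adjusted p = 0.876). The log2 fold change in GMP less that in LT-HSC was 1.13 for Csf2ra and 2.90 for Csf3r. These differences were not tested.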

How the results depend on the processing

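Of the values recomputed under the alternatives, 898 of the single-gene values kept their direction and side of the threshold, 33 turned in direction, 31 lost the call and 15 gained one. Of those that turned, 2 passed the test under the alternative, neither having passed before: the difference for Csf2rb2 of MEP less CMP went from 0.34 to −1.21 with limma on log2(TPM + 1), and that of GMP less MEP from −0.60 to 0.78. On the TPM scale, which has no TMM step, the median of all genes shifted with log2(TPM + 0.1) to −0.15 in GMP, −0.34 in LT-HSC and −0.25 for GMP less CMP. The cause of the changes below was not tested.

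In LT-HSC, Csf1r, at 0.00, became −0.039 with median-of-ratios size factors, −0.038 with DESeq2, −0.046 with the length offset, −0.21 and −0.64 with limma on log2(TPM + 1) and log2(TPM + 0.1) and −0.57 with the replicate block, and ranged from −3.47 to 2.11 with a library left out. With a library or mouse left out, ranges that crossed 0 were −0.39 to 0.063 for Csf2rb2 in LT-HSC, −1.03 to 0.39 for Csf3r in MEP and −0.17 to 0.050 for Csf1r in WT GMP against WT CMP. For GMP less CMP the range was −0.30 to 0.12 for Csf1r, and Il3ra became −0.14 with either pseudocount of limma. For MEP less CMP the ranges were −0.72 to 0.45 for Csf1r, −0.25 to 0.068 for Csf2ra and −0.75 to 0.59 for Csf3r. In that difference Csf1r became 0.31 with log2(TPM + 1) and 0.013 with log2(TPM + 0.1), Csf2rb −0.27 with log2(TPM + 1) and Csf2rb2 −0.59 with log2(TPM + 0.1). For GMP less MEP the ranges were −0.51 to 0.56 for Csf1r and −0.52 to 0.45 for Csf2rb. There Csf1r became −0.66 with log2(TPM + 1) and −0.38 with log2(TPM + 0.1), Csf2rb −0.0067 with log2(TPM + 0.1) and −0.098 with both beta chains as 1 gene, and Csf2rb2 0.079 with log2(TPM + 0.1).

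Genes called in LT-HSC, 18 with the settings reported, numbered 286 without the filter, 204 with DESeq2, 1 with limma at either pseudocount and 115 with the replicate block, and 50 to 2516 with a library left out. The genes of the 7 called there, 1 as reported, numbered 0 with limma at either pseudocount. Fits with an LT-HSC library left out kept 1 library of that genotype. Their calls moved widely and are weak, and they are included in the totals of single-gene values above. In MEP the 4 of the 7 called became 2 to 5, and all genes called 3040 to 5357. For GMP less CMP, 3887 genes were called as reported, 6469 with log2(TPM + 1), 6017 with log2(TPM + 0.1) and 2577 to 3637 with a mouse left out, and of the 7, 3 became 1 with the length offset and 1 without the replicate block. For MEP less CMP, 2416 genes became 1464 to 2638 with a mouse left out and 1946 to 2915 under the other alternatives. The replicate block added Csf1r (adjusted p = 0.00345) and Csf3r (0.0964) in CMP and changed no other call among the 7 in the comparisons of KO with WT. The few reads of Csf1, Csf1r, Csf2rb, Csf2rb2 and Csf3r in MEP, and 2 libraries a genotype in LT-HSC, limit what can be read there.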
